A study of Mus musculus with 5 samples.

Results

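The genes described here are 48 DNA replication genes, chosen by symbol and mapped to their Entrez gene identifiers. They cover the licensing of replication origins, the start of the helicase, the sliding clamp and its loader, the polymerases, the joining of Okazaki fragments, the supply of nucleotides, chromatin copying, and the G1/S switch. All 48 had counts in every library and all 48 entered the test, out of 17058 genes with a count and 12576 genes tested. RNA-Seq was performed on bone marrow-derived macrophages (BMDMs) from female Balb/c mice, grown in M-CSF, that had been cultured for 48 hours across a porous membrane from 4T1 cells, a mouse mammary carcinoma line. In 2 libraries the BMDMs had faced WT 4T1 cells, and in 3 libraries they had faced Adam17-/- 4T1 cells from the knockout line designated 2.8. ADAM17 is a membrane protease that cleaves signaling proteins off the cell surface. The gene was deleted in the cancer cells by CRISPR and not in the macrophages that were sequenced, so Adam17 counts in these libraries do not check the labels. The knockout line was grown from sorted single cells, so the loss of Adam17 and any other feature of that line cannot be told apart. The labels do not say whether replicates came from separate mice or cultures, and p-values measure the spread between these samples only.

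A cell copies its DNA once per division because origins are licensed in G1 and fired in S phase. The origin recognition complex, with Cdc6 and Cdt1, loads the ring of Mcm2 to Mcm7 onto DNA. Cdc45 and the GINS complex then turn the ring into an active helicase, primase and polymerase alpha lay primers, and polymerases delta and epsilon extend them on the PCNA clamp. E2F factors, held back by the retinoblastoma protein and released by cyclin E, switch on many of these genes in late G1. Macrophages grown from bone marrow in M-CSF can still divide, so a culture holds cells in the cycle and cells that have left it. In bulk RNA, fewer cycling cells and less RNA per cell cannot be told apart.

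The 5 libraries held 14658694 to 20788373 counts, and a gene at 3 counts was at 0.157 to 0.197 CPM (counts scaled to the library total with TMM factors). Markers of macrophages and of some other cell types differed between the cocultures. Over all genes tested, 16.8% were lower and 14.9% higher, as set out below. Of 8 macrophage markers, 6 were lower in the Adam17-/- cocultures, and the summed level was 27659 to 28416 CPM in the WT cocultures and 17945 to 19906 CPM in the Adam17-/- cocultures, with Lyz2 the most abundant. Of 11 markers of neutrophil precursors, 8 were higher, with sums of 326 to 395 CPM against 1130 to 1313 CPM, with S100a9 the most abundant. Of 6 megakaryocyte markers, 5 were higher, with sums of at most 54.9 CPM against 80.9 to 136 CPM. Kit was the 1 of 4 stem and progenitor markers that rose, and Hba-a1 was the 1 of 2 tested erythroid markers that rose, while Ahsp and Hbb-bs were at 0. Of 10 epithelial markers, Cdh1 alone passed the filter on low counts and did not differ past the test, and 7 had 3 or fewer counts in every library. Of 4 lymphocyte markers 1 could be tested and did not pass, with Cd3g at 0, and none of the 3 fibroblast markers tested passed. The fibroblast sum was 31.2 and 26.7 CPM in the WT cocultures and 19.7, 39.5 and 97.3 CPM in the Adam17-/- cocultures. The part of these cells in the results below was not tested.

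Relative to WT cocultures, 12 of the 48 replication genes were lower and 3 were higher in macrophages cocultured with Adam17-/- cells. The test was edgeR's quasi-likelihood test, a gene passed where its p, adjusted by Benjamini-Hochberg over all genes tested, was 0.05 or less, and fold changes are Adam17-/- minus WT on the log2 scale. Over all genes tested, 16.8% were lower, 14.9% were higher, and 31.7% passed in either direction. The share of replication genes that passed, 31.2%, was close to that of all genes. The lower share, 12 of 48, was above that of all genes and the higher share, 3 of 48 or 6.25%, below it. The median log2 fold change was -0.08 for the replication genes and 0.0092 for all genes. With a further limit of 1 on the absolute log2 fold change, Mcm5 was the 1 gene of the 48 left, where 4.22% of all genes were left. Levels of the groups did not overlap in 30 of the 48 genes, 10 of them higher and 20 lower, or 62.5%, where the share of all genes was 58.1%. Counted as a whole, the set passed the test about as often as genes in general.

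These counts depended on scaling and on single libraries. With upper quartile factors the split of the 48 genes was 5 higher and 9 lower, with library sizes alone it was 6 higher and 5 lower, and limma fits on log2(FPKM + 0.1) and on log2(FPKM + 1) each gave 8 higher and 5 lower. In the last 3 settings the median of all genes also lay higher, at 0.16, 0.15 and 0.11. Over all genes the split was 1869 higher and 2114 lower, 2237 and 1624 with upper quartile factors, and 3019 and 1077 with library sizes alone. Without Adam17-/- replicate 1, or without Adam17-/- replicate 2, 1 gene was higher and 6 were lower. Adam17-/- replicate 1 held the lowest level of 7 of the 12 lower genes and the highest level of all 3 higher genes. Mcm2, Mcm3, Mcm5, Cdt1 and Tyms passed in the same direction under all 14 alternative settings, and Uhrf1 did under 13.

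**Figure D1:**
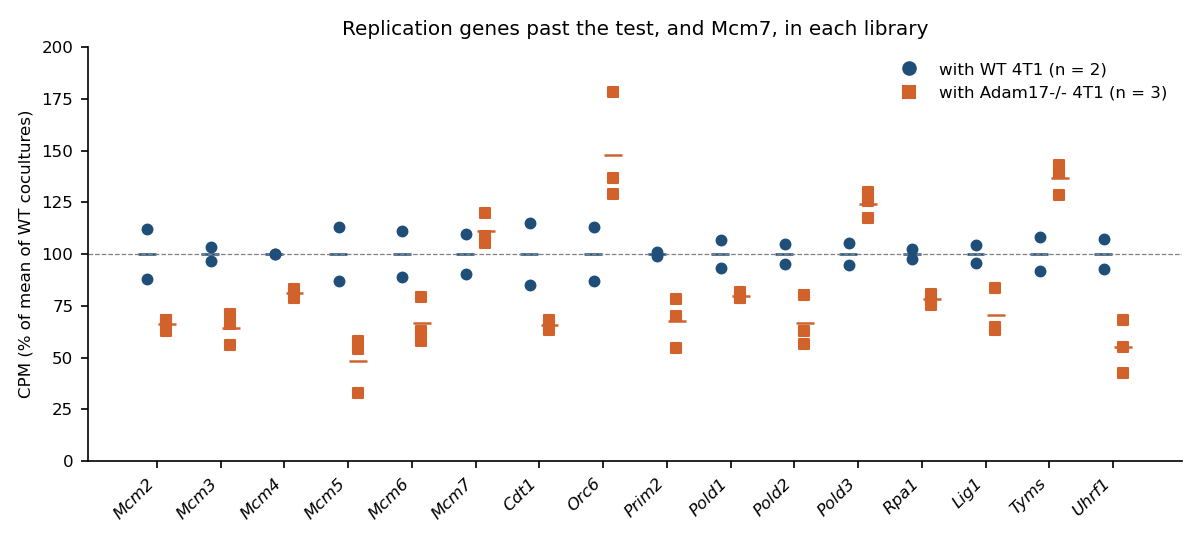
Level of each replication gene past the test, and of Mcm7, in each library, as a percentage of the mean CPM of the WT cocultures. Circles are WT cocultures (n = 2), squares are Adam17-/- cocultures (n = 3), and short bars are group means. Mcm5 sits lowest, at 32.7% to 58.0% of the WT mean, and Orc6 highest, at 129% to 178%.

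Licensing genes held 6 of the 12 lower calls, although they are 10 of the 48 genes. Mcm2, Mcm3, Mcm4, Mcm5, Mcm6 and Cdt1 fell, and Orc6 rose. The median log2 fold change of the 10 was -0.57, and it lay between -0.63 and -0.26 under the alternatives. Of the 6 subunits of the helicase ring, 5 fell and Mcm7 did not pass. The lower count of the ring was 3 with library sizes alone and in both FPKM fits. It was 3, 3 and 4 without Adam17-/- replicate 1, 2 and 3.

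Mcm5 (chr8:75109468-75128439, GRCm38), a subunit of the ring at the gate through which DNA enters, was at 14.0 and 10.8 CPM in the WT cocultures and at 4.05, 7.17 and 6.67 CPM in the Adam17-/- cocultures. Every Adam17-/- library lay below both WT libraries, and Adam17-/- replicate 1 was the lowest. The counts behind these levels were 267 and 199 against 74, 109 and 126. The means were 12.4 ± 2.27 (SD, n = 2) and 5.96 ± 1.68 CPM (SD, n = 3), and the log2 fold change was -1.06 (SE 0.22, adjusted p = 0.00705 by edgeR).

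Mcm3 (chr1:20802966-20820312), the most highly counted subunit in the WT cocultures, stood at 46.1 and 42.9 CPM there and at 24.96, 29.4 and 31.6 CPM in the Adam17-/- cocultures. The groups were clearly separate, and Adam17-/- replicate 1 was again the lowest. Mcm3 had a log2 fold change of -0.64 (SE 0.11, adjusted p = 0.00336).

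Mcm2 (chr6:88883474-88898780), a subunit that also binds histones at the fork, was at 21.5 and 16.9 CPM against 12.04, 13.1 and 13.1 CPM. The WT libraries differed more from each other than the Adam17-/- libraries did, and the groups did not overlap. Its log2 fold change was -0.59 (SE 0.13, adjusted p = 0.00836).

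Mcm6 (chr1:128331575-128359705) was measured at 15.6 and 12.5 CPM against 8.15, 8.82 and 11.1 CPM. The groups did not overlap, but Adam17-/- replicate 3 came close to the second WT library. The log2 fold change of -0.58 (SE 0.16, adjusted p = 0.0234) did not pass without WT replicate 1 (adjusted p = 0.0863), Adam17-/- replicate 1 (adjusted p = 0.0993) or Adam17-/- replicate 2 (adjusted p = 0.0851). The call was also lost with library sizes alone (adjusted p = 0.0607) and in the FPKM fits (0.0557 and 0.0544).

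Mcm4 (chr16:15623897-15637400) had the smallest drop of the subunits that fell, from 26.0 CPM in both WT libraries to 21.1, 20.5 and 21.6 CPM. Both groups were tight and did not overlap. Its log2 fold change was -0.30 (SE 0.09, adjusted p = 0.0348), and the call was lost when Adam17-/- replicate 1, 2 or 3 was left out (adjusted p = 0.142, 0.138 and 0.107). It was kept under 3 of the 14 alternatives, and was also lost with DESeq2 (adjusted p = 0.0928), upper quartile factors (0.0749), library sizes alone (0.223), the FPKM fits (0.264 and 0.269), no filter on low counts (0.0514) and the replicate block (0.161).

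Mcm7 (chr5:138164583-138172111), the remaining subunit, was at 23.2 and 19.2 CPM in the WT cocultures and at 22.3, 25.4 and 23.1 CPM in the Adam17-/- cocultures. The groups overlapped. Its log2 fold change of 0.15 (SE 0.12, adjusted p = 0.347) did not pass, and it rested on the WT libraries, at 0.29 (adjusted p = 0.0727) without WT replicate 1 and 0.02 (adjusted p = 0.915) without WT replicate 2. With library sizes alone it was 0.30 (adjusted p = 0.0639). As FPKM, which is scaled to library size without the TMM factors, the groups did not overlap. The levels were 9.16 and 7.93 FPKM in the WT cocultures and 10.05, 11.3 and 10.3 FPKM in the Adam17-/- cocultures. The FPKM fits did not call Mcm7 (adjusted p = 0.0666 and 0.0712).

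The subunits form a ring with equal numbers of each protein, so their transcripts were also compared with Mcm7 inside each library, which removes the scaling between libraries. Per Mcm7 count there were 0.926 and 0.882 Mcm2 counts in the WT cocultures and 0.539, 0.516 and 0.567 in the Adam17-/- cocultures. For Mcm3 the ratios were 1.98 and 2.23 against 1.12, 1.16 and 1.37. For Mcm5 they were 0.601 and 0.561 against 0.181, 0.282 and 0.289. All 3 ratios were separate between the groups, and the 2 WT libraries lay close together in each. The Mcm6 ratios were 0.671 and 0.651 against 0.365, 0.347 and 0.482. The Mcm4 ratios were 1.12 and 1.35 against 0.946, 0.808 and 0.933. With 2 libraries against 3, an exact one-sided permutation test of any 1 ratio cannot give a p under 0.1, so these ratios are a description. They share Mcm7 as denominator, which was chosen with its fold change known, so they restate the fold changes above within each library and do not show that Mcm7 was constant.

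**Figure D2:**
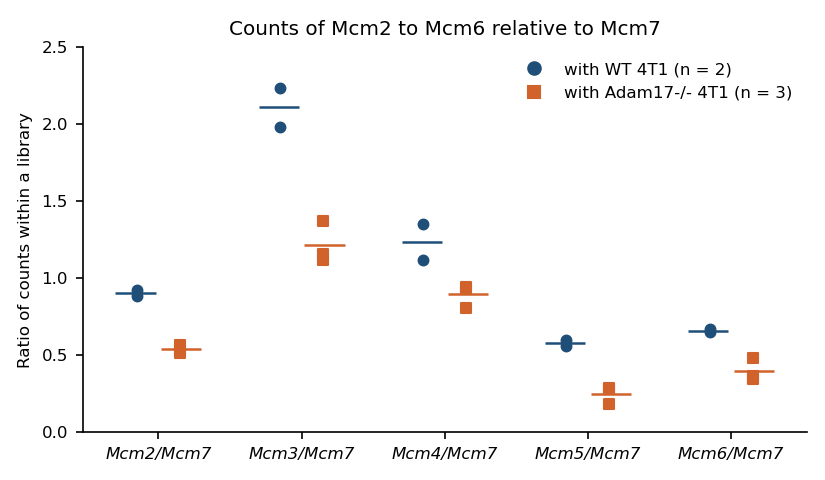
Ratio of the counts of Mcm2, Mcm3, Mcm4, Mcm5 and Mcm6 to those of Mcm7 within each library. Circles are WT cocultures (n = 2), squares Adam17-/- cocultures (n = 3), and bars group means. In all 5 ratios the Adam17-/- libraries sit below the WT libraries, for Mcm5 at 0.181 to 0.289 against 0.561 to 0.601.

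Cdt1 (chr8:122568015-122573130), the loading factor that brings the ring to the origin, was at 58.3 and 43.1 CPM in the WT cocultures and at 33.3, 34.5 and 32.0 CPM in the Adam17-/- cocultures. The Adam17-/- libraries were nearly alike and all below the lower WT library. Cdt1 had a log2 fold change of -0.61 (SE 0.12, adjusted p = 0.00645). It was -0.38 (adjusted p = 0.0074) without WT replicate 1, the higher of the WT libraries. Geminin (Gmnn), the inhibitor that binds Cdt1 after origins have fired, had a log2 fold change of -0.02 (SE 0.12, adjusted p = 0.930). The ratio of Cdt1 to Gmnn counts was 5.77 and 3.93 in the WT cocultures and 3.24, 3.12 and 3.22 in the Adam17-/- cocultures. The Adam17-/- ratios were the lower ones in every library.

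Cdc6, the ATPase that works with Cdt1, was at 3.24 and 3.25 CPM against 1.75, 2.24 and 2.59 CPM. The groups did not overlap, yet with 32 to 62 counts per library the log2 fold change of -0.56 (SE 0.23, adjusted p = 0.0847) did not pass. Orc1, the ATPase subunit of the origin recognition complex, was at 2.15 and 1.57 CPM against 2.41, 2.37 and 1.96 CPM, and its groups overlapped. Its log2 fold change was 0.27 (SE 0.25, adjusted p = 0.443), and 0.51 and 0.06 without WT replicate 1 and 2.

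Orc6 (chr8:85299632-85308279), the smallest subunit of the origin recognition complex, went the other way. It was at 5.29 and 6.87 CPM in the WT cocultures and at 10.8, 7.83 and 8.31 CPM in the Adam17-/- cocultures. The groups did not overlap, and Adam17-/- replicate 1 stood highest. For Orc6 the log2 fold change was 0.57 (SE 0.19, adjusted p = 0.0448). The call was lost without WT replicate 1 (adjusted p = 0.167) or without Adam17-/- replicate 1, 2 or 3 (adjusted p = 0.155, 0.0554 and 0.0741), and with DESeq2 (adjusted p = 0.0521) and the replicate block (adjusted p = 0.0584).

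The Orc6 counts were also divided differently between transcripts. A transcript that lacks exon 2 was given 0 and 3.38 expected counts in the WT cocultures and 129.85, 45.42 and 121.04 in the Adam17-/- cocultures. The transcript with all 7 exons was given 92.95 and 120.81 against 68.15, 73.58 and 20.18. The form without exon 2 thus held 0% and 2.7% of Orc6 counts in the WT cocultures and 65.6%, 38.2% and 77.1% in the Adam17-/- cocultures. The form with all 7 exons held 92.0% and 95.1% against 34.4%, 61.8% and 12.9%, so the shares of both forms were far apart. The counts themselves are not scaled for library size. The remaining form, which lacks exon 5, held 0% to 10.1% with no separation. These splits are estimates from reads that the forms mostly share, on 101 to 198 counts per library, and no test was run on them. The exon in question lies at chr8:85301109-85301238 on the plus strand of GRCm38, is 130 bases long, and is coding in the full transcript. It is shown because reads across it or its junctions are what tells the forms apart, read from the GENCODE transcript with exon 2 in capitals and 20 bases of the neighboring exons in lower case.
Orc6 exon 2: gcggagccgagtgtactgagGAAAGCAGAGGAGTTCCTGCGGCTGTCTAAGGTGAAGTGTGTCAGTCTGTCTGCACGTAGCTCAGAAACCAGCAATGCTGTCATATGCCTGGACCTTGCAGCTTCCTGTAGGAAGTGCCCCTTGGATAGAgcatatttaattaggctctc

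**Figure D3:**
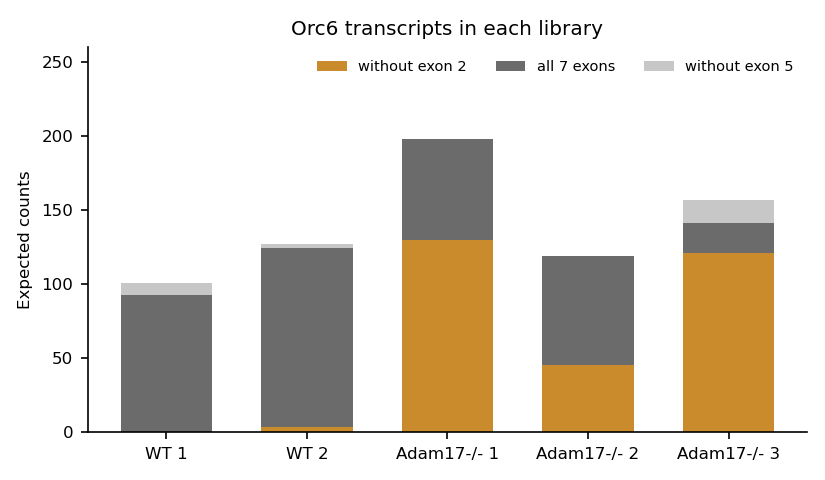
Expected counts that the deposited tables give to each Orc6 transcript in each library, stacked. The form without exon 2 (ochre) is at 0 and 3.38 counts in the WT cocultures and at 45.42 to 129.85 counts in the Adam17-/- cocultures.

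None of the 6 genes that turn the loaded ring into a moving helicase passed the test in edgeR or in DESeq2, while at an unadjusted p under 0.05 edgeR had 1 higher (Gins3) and 1 lower (Gins2), and the limma fits on FPKM called 2 higher (Gins1 and Gins3). Gins3 also passed as higher with upper quartile factors (adjusted p = 0.0462) and with library sizes alone (adjusted p = 0.0279). Their median log2 fold change was 0.19. Within the GINS complex, whose 4 subunits are needed in equal numbers, the transcripts pointed in different directions. Gins2 was at 2.67 and 2.54 CPM against 1.42, 1.51 and 2.01 CPM, and its groups did not overlap (log2 fold change -0.65, SE 0.25, adjusted p = 0.0684). Gins3 was at 3.35 and 3.30 CPM against 5.69, 4.41 and 4.29 CPM, also without overlap (log2 fold change 0.53, SE 0.19, adjusted p = 0.0637). Gins1 was at 2.36 and 2.54 CPM against 3.39, 3.88 and 2.86 CPM (adjusted p = 0.134). Gins4, the most highly counted of them, overlapped at 12.1 and 14.1 CPM against 12.9, 12.2 and 13.1 CPM. Cdc45, the helicase cofactor that joins with GINS, had a log2 fold change of 0.42 (SE 0.23, adjusted p = 0.188; 0.25 without Adam17-/- replicate 2), and Mcm10, which helps the helicase to start, one of -0.23 (SE 0.25, adjusted p = 0.504), which was 0.11 without WT replicate 1. All but Gins4 rested on 23 to 104 counts per library.

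The clamp and its loader, 6 genes, held 0 calls as well, by edgeR and by DESeq2. At an unadjusted p under 0.05, 1 was lower by edgeR (Pcna), and limma on FPKM called 1 higher (Rfc2). The log2 fold changes ranged from -0.24 to 0.21 with a median of 0.03, whose sign was not stable: it lay between -0.03 and 0.18 under the alternatives, below 0 without WT replicate 1, without Adam17-/- replicate 2 and with the replicate block. Pcna, the sliding clamp that tethers polymerases to DNA, was at 53.0 and 56.0 CPM in the WT cocultures and at 42.1, 45.2 and 50.7 CPM in the Adam17-/- cocultures. The groups did not overlap, but the difference did not pass (log2 fold change -0.24, SE 0.10, adjusted p = 0.0896). It did without WT replicate 1 (adjusted p = 0.0487). Rfc2, a small loader subunit, was at 37.1 and 33.2 CPM against 39.9, 43.5 and 38.9 CPM, without overlap (log2 fold change 0.21, SE 0.10, adjusted p = 0.122). It too passed without WT replicate 1 (adjusted p = 0.0389), and with library sizes alone (adjusted p = 0.0184), while without WT replicate 2 its fold change was 0.13 (adjusted p = 0.292). Rfc1, the large subunit, and Rfc3, Rfc4 and Rfc5 overlapped, with log2 fold changes of -0.06, 0.07, 0.12 and -0.0029.

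Of the 9 polymerase and primase genes, Prim2, Pold1 and Pold2 fell, Pold3 rose and 5 did not pass. The median log2 fold change was -0.05, and it lay between -0.24 and 0.11 under the alternatives, so its sign was not stable. With library sizes alone or on FPKM, Pold3 was the 1 call left among the 9. Of the polymerase delta subunits, Pold1 and Pold2 were lower and Pold3 was higher, and Pold4, the smallest subunit and not among the 48 genes, had a log2 fold change of 0.03 (SE 0.10, adjusted p = 0.839).

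Prim2, the large primase subunit, was at 12.5 and 12.2 CPM in the WT cocultures and at 9.63, 6.71 and 8.63 CPM in the Adam17-/- cocultures. The groups were separate, with Adam17-/- replicate 2 lowest. The log2 fold change was -0.56 (SE 0.16, adjusted p = 0.0240), and the call was lost without Adam17-/- replicate 2 (adjusted p = 0.0786) or 3 (adjusted p = 0.0701), with library sizes alone (adjusted p = 0.0761) and in the FPKM fits (adjusted p = 0.0785 and 0.0787). Prim1, the catalytic primase subunit, did not pass (log2 fold change 0.19, SE 0.21, adjusted p = 0.507), and its fold change was 0.08 and 0.31 without WT replicate 1 and 2.

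Pold1, the catalytic subunit of polymerase delta, was at 23.0 and 20.1 CPM against 17.6, 16.97 and 16.94 CPM. All Adam17-/- libraries were lower and close together (log2 fold change -0.33, SE 0.11, adjusted p = 0.0420). This call was lost without WT replicate 1 (adjusted p = 0.131) and without Adam17-/- replicate 1, 2 or 3 (adjusted p = 0.124, 0.131 and 0.138), and with DESeq2 (adjusted p = 0.0962), upper quartile factors (0.0811), library sizes alone (0.199), the FPKM fits (0.243 and 0.246) and the replicate block (0.178). Pold2, its partner subunit, was at 8.32 and 7.52 CPM against 4.98, 4.47 and 6.35 CPM, again without overlap (log2 fold change -0.58, SE 0.18, adjusted p = 0.0317). The Pold2 call was lost without WT replicate 1 (adjusted p = 0.0887), Adam17-/- replicate 1 (adjusted p = 0.117) or Adam17-/- replicate 2 (adjusted p = 0.110), and with DESeq2 (adjusted p = 0.0550), upper quartile factors (0.0505), library sizes alone (0.0819) and the FPKM fits (0.0688 and 0.0677).

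Pold3 (chr7:100082110-100121502), the accessory subunit that contacts PCNA, was at 58.1 and 52.3 CPM in the WT cocultures and at 71.8, 69.3 and 64.9 CPM in the Adam17-/- cocultures. All Adam17-/- libraries were above both WT libraries. The log2 fold change was 0.31 (SE 0.09, adjusted p = 0.0274), and it did not pass without Adam17-/- replicate 1 (adjusted p = 0.0967) or 2 (adjusted p = 0.0737), or with the replicate block (adjusted p = 0.102). The leading-strand polymerase showed no call: Pole, its catalytic subunit, had a log2 fold change of -0.44 (SE 0.21, adjusted p = 0.134), which was -0.28 without Adam17-/- replicate 1, and Pole2 one of 0.18 (SE 0.15, adjusted p = 0.384), which was 0.30 and 0.10 without Adam17-/- replicate 2 and 3 and 0.08 with the replicate block. Pola1 and Pola2, subunits of polymerase alpha, had log2 fold changes of -0.02 and -0.05. Without WT replicate 2, Pola2 passed as lower (log2 fold change -0.24, adjusted p = 0.0446), whereas without WT replicate 1 its fold change was 0.15.

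Among the genes that coat single strands and join Okazaki fragments, Rpa1 and Lig1 fell and 3 did not pass. The median log2 fold change of these 5 genes was -0.36. Rpa1, the large subunit of the single-strand binding protein RPA, was at 40.2 and 42.3 CPM against 31.1, 32.2 and 33.3 CPM. Both groups were tight and apart (log2 fold change -0.36, SE 0.09, adjusted p = 0.0141), but the call was lost without Adam17-/- replicate 1, 2 or 3 (adjusted p = 0.0947, 0.0699 and 0.0559), with library sizes alone (0.0995), in the FPKM fits (0.115 and 0.119) and with the replicate block (0.0850). Rpa2 and Rpa3, the smaller subunits, did not pass, at log2 fold changes of -0.10 (SE 0.16) and 0.55 (SE 0.25). Rpa3 was at 1.94 and 3.36 CPM in the WT cocultures and at 4.32, 3.68 and 3.55 CPM in the Adam17-/- cocultures, and it passed as higher without WT replicate 2 (log2 fold change 0.99, adjusted p = 0.0127) and in the FPKM fits. Without WT replicate 1 its log2 fold change was 0.20 (adjusted p = 0.574).

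Lig1, the ligase that seals Okazaki fragments, was at 43.3 and 39.6 CPM in the WT cocultures and at 26.3, 26.8 and 34.7 CPM in the Adam17-/- cocultures. Adam17-/- replicate 3 was nearer the WT libraries than the other two, without reaching them. The log2 fold change was -0.50 (SE 0.13, adjusted p = 0.0169), and it did not pass without Adam17-/- replicate 1 (adjusted p = 0.0873) or 2 (adjusted p = 0.0803), with library sizes alone (adjusted p = 0.0601) or in the FPKM fits (adjusted p = 0.0713 and 0.0752). Fen1, the nuclease that trims the flaps before ligation, was at 14.5 and 14.2 CPM against 7.55, 12.3 and 10.8 CPM. Its groups did not overlap, and the log2 fold change of -0.50 (SE 0.18, adjusted p = 0.0607) passed only when Adam17-/- replicate 2 was left out (adjusted p = 0.0487), when no filter on low counts was used, or with the replicate block. Without Adam17-/- replicate 1, the lowest library, it was -0.30 (adjusted p = 0.187).

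The 5 genes of nucleotide supply held 1 call, and it was an increase. By edgeR 0 were lower, also at an unadjusted p under 0.05, and DESeq2 and the limma fits gave 0 lower as well. Tyms (chr5:30038546-30073645), thymidylate synthase, which makes dTMP from dUMP, was at 84.0 and 71.1 CPM in the WT cocultures and at 111, 108 and 99.4 CPM in the Adam17-/- cocultures. All Adam17-/- libraries were above both WT libraries. The means were 77.5 ± 9.15 (SD, n = 2) and 106 ± 5.85 CPM (SD, n = 3), and the log2 fold change was 0.45 (SE 0.10, adjusted p = 0.00868). The summed expected counts of Tyms were not whole in any of the 5 libraries, so counts shared with similar genes are uncertain for Tyms. Of its 2 listed transcripts, the minor one was given 7.1% (Adam17-/- replicate 2) to 47.0% (WT replicate 1) of the counts. These shares are estimates and overlapped between the groups. The part of either limit in the rise was not tested. Rrm1, the large subunit of ribonucleotide reductase, was slightly lower without overlap, at 29.1 and 29.2 CPM against 26.2, 24.5 and 26.2 CPM, and did not pass (log2 fold change -0.18, SE 0.09, adjusted p = 0.154). Rrm2, the small subunit whose level follows S phase, Tk1, which salvages thymidine, and Dut, which clears dUTP, all overlapped between the groups. Their log2 fold changes were 0.09, 0.06 and 0.02, with standard errors of 0.17, 0.19 and 0.20. The Rrm2 value was 0.20 and 0.02 without Adam17-/- replicate 1 and 2.

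Uhrf1 (chr17:56303337-56323486), which brings the maintenance methyltransferase to newly copied DNA, was the 1 of 3 chromatin genes that fell. It was at 9.47 and 8.23 CPM in the WT cocultures and at 3.78, 4.87 and 6.04 CPM in the Adam17-/- cocultures. The groups were well apart, and Adam17-/- replicate 1 was lowest. The log2 fold change was -0.85 (SE 0.19, adjusted p = 0.0102). Chaf1a and Chaf1b, subunits of the factor that places histones on new DNA, had log2 fold changes of -0.37 (SE 0.14, adjusted p = 0.0753) and -0.17 (SE 0.20, adjusted p = 0.546). Without WT replicate 2, Chaf1a passed as lower (log2 fold change -0.52, adjusted p = 0.0157), whereas without WT replicate 1 its fold change was -0.21 (adjusted p = 0.349). The Chaf1b fold change was 0.02 and -0.34 without WT replicate 1 and 2.

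None of the 4 G1/S regulators passed in edgeR or DESeq2. Ccne2 was the 1 gene with an unadjusted p under 0.05, and limma on FPKM called it higher. E2f1 is one of the E2F factors, which switch on many replication genes. It was at 31.9 and 31.3 CPM in the WT cocultures and at 25.4, 29.3 and 27.0 CPM in the Adam17-/- cocultures. Its groups did not overlap, though the difference was small (log2 fold change -0.21, SE 0.10, adjusted p = 0.124). Ccne2, a cyclin E gene, was at 1.57 and 1.73 CPM against 2.96, 2.96 and 2.17 CPM. It too was separate (log2 fold change 0.70, SE 0.25, adjusted p = 0.0571), and it passed as higher without Adam17-/- replicate 3 (adjusted p = 0.0483), with upper quartile factors, with library sizes alone, in the FPKM fits and with at least 10 counts in every sample. Ccne1, the other cyclin E gene, and E2f2 overlapped, at log2 fold changes of -0.30 (SE 0.21) and 0.16 (SE 0.14). The Ccne1 value rested on single WT libraries, at -0.02 (adjusted p = 0.970) without WT replicate 1 and -0.54 (adjusted p = 0.0547) without WT replicate 2. That of E2f2 was 0.27 without Adam17-/- replicate 2, 0.11 without Adam17-/- replicate 3 and 0.08 with the replicate block.

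**Figure D4:**
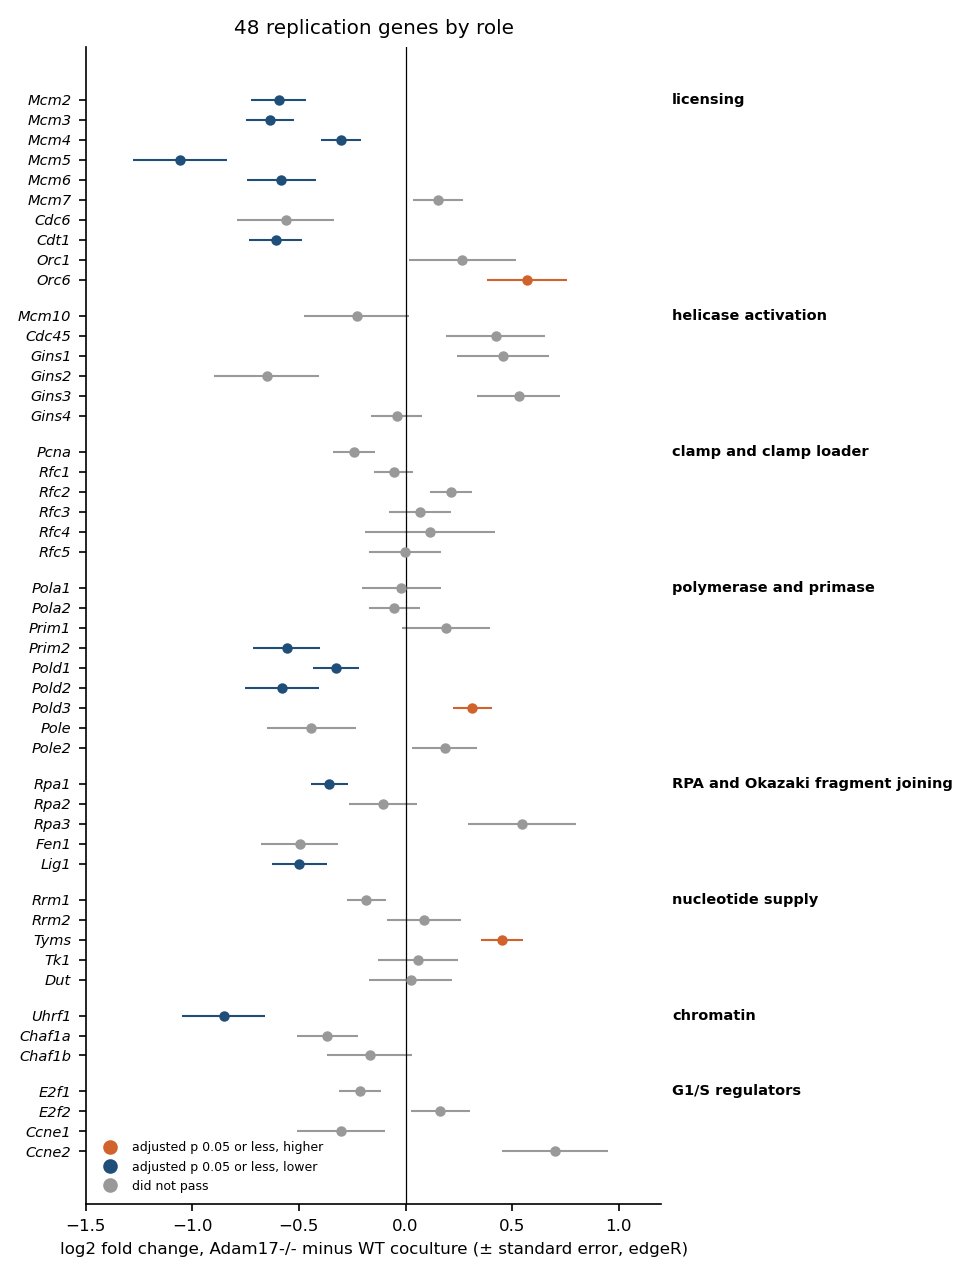
Log2 fold change (Adam17-/- minus WT coculture) of the 48 genes by role, with the standard error of the edgeR fit as bars, from 2 WT and 3 Adam17-/- cocultures. Blue points passed as lower, orange as higher, and gray points did not pass. The lower calls crowd in the licensing genes, where 6 of 10 points are blue.

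Set side by side, the licensing genes had 6 lower and 1 higher of 10, the polymerase and primase genes 3 lower and 1 higher of 9, and the nucleotide genes 0 lower and 1 higher of 5. The medians were -0.57, -0.05 and 0.06. Of these 3 medians, the licensing one alone had the same sign under all 14 alternatives. The lower counts moved when Adam17-/- replicate 1, 2 or 3 was left out. They were then 4, 4 and 5 for licensing, 1, 0 and 1 for polymerase and primase, and 0 each time for nucleotides. Summed CPM of the licensing genes was 215 and 183 in the WT cocultures and 141, 151 and 152 in the Adam17-/- cocultures. The polymerase sum overlapped, at 165 and 147 against 162, 155 and 154 CPM. The nucleotide sum, most of it Tyms, was 127 and 112 against 149, 146 and 139 CPM. The licensing sum relative to the polymerase sum of the same library was 1.31 and 1.24 in the WT cocultures and 0.868, 0.977 and 0.986 in the Adam17-/- cocultures. Relative to the nucleotide sum it was 1.70 and 1.63 against 0.945, 1.04 and 1.09. The polymerase sum relative to the nucleotide sum was 1.30 and 1.31 against 1.09, 1.06 and 1.11. In each of these ratios the Adam17-/- libraries were all below the WT libraries. Ratios over the nucleotide sum also carry the rise of Tyms and the uncertainty of its counts. Cdt1 and Mcm3 make up much of the licensing sum. The groups of genes are small and were not tested against each other.

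Per length, the levels of the replication genes spanned about 2 orders of magnitude. Pcna had the highest FPKM in every library, at 40.8 and 45.1 in the WT cocultures and 37.1, 39.4 and 44.0 in the Adam17-/- cocultures. It was followed in the WT cocultures by Rfc2 (mean 22.7 FPKM), Cdt1 (21.8), Tyms (19.5) and Pold3 (17.7), of which Rfc2, Cdt1 and Tyms overlapped between neighbors in this order. In the Adam17-/- cocultures Tyms (mean 29.5 FPKM) and Rfc2 (29.2) were level, ahead of Pold3 (24.3), and Cdt1 was at 15.9. Cdt1 and Pold3 thus changed places: Cdt1 was above Pold3 in both WT libraries and below it in all 3 Adam17-/- libraries. At the low end, Pole was at 0.52 and 0.53 FPKM in the WT cocultures and 0.35 to 0.50 in the Adam17-/- cocultures, and Cdc6, Orc1, Mcm10 and Ccne2 were at most at 1.04 FPKM in every library. Of the ring subunits, Mcm3 was highest in the WT cocultures, at 15.02 and 14.63 FPKM, and Mcm5 lowest, at 3.80 and 3.07 FPKM. In the Adam17-/- cocultures Mcm3 (9.28, 10.8 and 11.6 FPKM) and Mcm7 (10.1, 11.3 and 10.3 FPKM) could not be ranked apart.

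Of the 48 genes, 16 had counts in several transcripts, and in 6 of them (Orc6, Dut, E2f1, Lig1, Fen1 and Ccne2) the share of a transcript did not overlap between the groups. That is 37.5%, close to the 36.3% found among all 3793 tested genes with several transcripts and counts in every library. For Dut, a transcript with an upstream first exon held 62.7% and 60.8% of counts in the WT cocultures and 37.0%, 26.9% and 39.2% in the Adam17-/- cocultures, on 46 to 67 counts per library. For Lig1, a transcript with a different first exon held 23.8% and 16.1% against 11.2%, 12.4% and 10.1%. For E2f1, the minor transcript held 8.4% and 10.8% against 3.1%, 3.1% and 4.8%. In these 3 genes the WT shares of the named transcript were all higher. As for Orc6, the shares are estimates and were not tested.

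Promoter letters were read for 40 of the 48 genes in a RefSeq table of windows from 250 bases before to 50 bases after each start (GRCm38.p6). Mcm4, Gins1, Gins2, Gins4, Rfc2, Prim2, Pole and Ccne2 had no entry. The letters TTTCCCGC, TTTGGCGC, TTTGCCGC and TTTCGCGC, forms of the E2F motif that can overlap each other, were searched on both strands. They were found in 16 of the 40 genes (40.0%), in 4.70% of 10063 tested genes with an entry, and in 2.61% of all 27025 genes in the table. Among the replication genes they were in 7 of the 10 lower genes with an entry and in 9 of the other 30. Mcm7, which did not pass, and Pold3, which rose, held them too, and Tyms and Orc6 did not. CCAAT, searched on both strands, was in 60.0% of the 40 genes and 43.1% of tested genes, and TTTGAA, the letters of the CHR element, in 6 of the 40 genes and 14.5% of tested genes. A match is a description of the letters and not evidence of binding. The first match in each gene named above is shown with up to 10 bases on each side, 5′ to 3′ on the strand of the gene and with matched letters in capitals, so that fallen and other genes can be read together.
Mcm3, fell, chr1:20820276-20820303, minus strand: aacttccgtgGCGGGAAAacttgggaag
Mcm5, fell, chr8:75109346-75109373, plus strand: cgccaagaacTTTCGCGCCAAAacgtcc
Mcm6, fell, chr1:128359798-128359825, minus strand: ggcgtatgctTTTGGCGCGAAAagtgcg
Cdt1, fell, chr8:122568037-122568064, plus strand: gaactaccttTTTGGCGCcatggcgcaa
Lig1, fell, chr7:13278842-13278869, plus strand: gccaaagtgcGCGCGAAAtctgtgtggc
Pold1, fell, chr7:44548766-44548786, minus strand: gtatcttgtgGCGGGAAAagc
Uhrf1, fell, chr17:56304118-56304145, plus strand: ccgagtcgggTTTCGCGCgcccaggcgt
Mcm7, did not pass, chr5:138172031-138172058, minus strand: atttcgaaccGCGGGAAAcagggtgtcc
Pold3, rose, chr7:100121468-100121495, minus strand: agcgaagctgTTTCCCGCcggcgggagc

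Mcm5 and Mcm6 carried overlapping pairs of matches before the start, which the other genes shown did not. Positions here count from the start used by the RefSeq table, which need not be the start of the annotated gene. In Mcm5 the pair begins 153 bases before that start, which lies 41 bases inside the annotated gene, so the pair begins 112 bases before the gene itself. In Mcm6 both starts are the same base, and a pair begins 110 bases and a further match 47 bases before it. In Mcm7, Uhrf1 and Lig1 the start of the table likewise lies inside the annotated gene, by 228, 976 and 1651 bases. In Mcm3, Cdt1, Lig1, Pold1 and Pold3 the first match lies 18 to 40 bases after the start of the table. The table's bases upstream of the annotated gene are shown for Mcm5 (209 bases, leaving out the 41 that lie inside the gene) and Mcm6 (250 bases), each ending just before the first annotated base and with matches in capitals.
Mcm5, chr8:75109259-75109467, plus strand: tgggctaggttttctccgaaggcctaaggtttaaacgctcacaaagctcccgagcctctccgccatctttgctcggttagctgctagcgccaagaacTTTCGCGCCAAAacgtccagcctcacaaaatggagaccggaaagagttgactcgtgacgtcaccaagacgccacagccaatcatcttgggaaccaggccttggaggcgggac
Mcm6, chr1:128359706-128359955, minus strand: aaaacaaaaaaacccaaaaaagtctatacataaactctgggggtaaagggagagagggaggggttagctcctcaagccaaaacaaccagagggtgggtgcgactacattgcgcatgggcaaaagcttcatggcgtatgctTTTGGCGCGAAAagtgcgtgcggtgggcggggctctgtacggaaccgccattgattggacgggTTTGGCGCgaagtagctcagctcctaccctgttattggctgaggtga

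Other genes of the same processes were read for comparison from 6 lists of 123 genes, in which 28 genes rose (22.8%) and 10 fell (8.13%), against 14.9% and 16.8% of all genes. The share that passed in either direction, 30.9%, was close to the 31.7% of all genes. Their median log2 fold change was 0.14. With library sizes alone, 40 were higher and 5 lower. The higher count was 18 without Adam17-/- replicate 1 or 2, and the lower count was 5, 5 and 6 without Adam17-/- replicate 1, 2 and 3 and 15 without WT replicate 2. Of 31 other origin and fork genes, 7 rose (22.6%) and 2 fell (6.45%). Between 3 and 8 were higher under the alternatives, with 3 without Adam17-/- replicate 1 and 4 without Adam17-/- replicate 2, and 0 were lower without any 1 of the Adam17-/- replicates, with library sizes alone, on FPKM or with the replicate block. Orc4, a subunit of the origin recognition complex, rose, from 22.5 and 35.8 CPM to 53.5, 44.6 and 48.7 CPM. Named after their values were seen, Orc3 (65.05 and 62.5 CPM against 87.4, 83.9 and 90.3) and Orc5 (23.8 and 24.4 CPM against 29.9, 31.1 and 27.5) also passed as higher, and Orc2 did not pass (log2 fold change -0.02, adjusted p = 0.919). Dna2, a nuclease of Okazaki fragments, rose by a log2 fold change of 0.77 (SE 0.14, adjusted p = 0.00348) and Donson, a fork factor, by 0.67 (SE 0.15, adjusted p = 0.00876). Mcmbp, which binds the Mcm ring, and Chtf8, part of another clamp loader, fell by 0.30 and 0.31 on the log2 scale.

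Of 19 other genes of nucleotide synthesis, 7 fell (36.8%) and 1 rose, and the median log2 fold change was -0.15. On FPKM 4 were lower and 2 higher, and the median was 0.0066 and 0.0062. Over all alternatives 4 to 9 were lower and 0 to 2 higher, the 9 without WT replicate 2 and none higher without any 1 of the Adam17-/- replicates. The lower genes were those of new purine and pyrimidine synthesis and the folate cycle. Atic, the last enzyme of the purine route, was at 84.0 and 77.2 CPM in the WT cocultures and at 37.8, 37.96 and 44.0 CPM in the Adam17-/- cocultures (log2 fold change -1.01, SE 0.10, adjusted p = 0.000352). Cad, the first enzymes of the pyrimidine route, was at 27.9 and 21.6 CPM against 11.2, 13.5 and 13.9 CPM (log2 fold change -0.95, SE 0.14, adjusted p = 0.00163). Mthfd1, which supplies folate units, had a log2 fold change of -0.78 (SE 0.14, adjusted p = 0.00377). In all 3 the groups were well apart. Dck, which salvages deoxynucleosides, was the gene that rose (log2 fold change 0.45, SE 0.12, adjusted p = 0.0196). Tyms, which also uses a folate unit, rose, as given above.

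Of 30 genes of G2 and mitosis, 14 were higher (46.7%) and 0 lower by edgeR, with 0 lower also at an unadjusted p under 0.05 and by DESeq2 and limma. Without WT replicate 2, 11 were higher and 1 was lower. Their median log2 fold change was 0.38. Cenpf, a kinetochore protein, was at 1.67 and 1.57 CPM against 3.17, 4.74 and 3.28 CPM (log2 fold change 1.19, SE 0.26, adjusted p = 0.00823). Kif11, a spindle motor, was at 2.20 and 2.60 CPM against 4.10, 5.53 and 4.87 CPM (log2 fold change 1.01, SE 0.21, adjusted p = 0.00697). Ccnb1, the mitotic cyclin, was at 1.15 and 1.57 CPM against 1.97, 2.83 and 3.23 CPM (log2 fold change 0.97, SE 0.30, adjusted p = 0.0328). In each of these every Adam17-/- library was above both WT libraries. Of 17 other G1/S regulators, Ccna2, the cyclin of S and G2 phase, and Fbxo5, an inhibitor of the anaphase-promoting complex, rose (log2 fold changes 0.72 and 0.62), and E2f4, which acts mainly as a repressor, fell (log2 fold change -0.45). In that list 1 to 6 were higher and 0 to 2 lower under the alternatives, with 4 and 2 without WT replicate 2, 1 higher without Adam17-/- replicate 1 or 2, and 0 lower without any 1 library other than WT replicate 2. Of 20 repair and checkpoint genes, 3 rose, a share that matches the 14.9% of all genes, and 0 fell by edgeR (1 was lower at an unadjusted p under 0.05, and 0 by DESeq2 and limma): Atr (log2 fold change 0.87, SE 0.10, adjusted p = 0.000576), Brca2 (0.73) and Blm (0.71). The higher count of this list was 3 to 6 under the alternatives, and 5 without WT replicate 1. Of 6 other S-phase chromatin genes, Hells, a chromatin remodeler, rose (log2 fold change 0.50), but 0 were higher with DESeq2, with the replicate block, or without any 1 library other than WT replicate 2, and 3 were higher without that library. Beside these counts stand the neutrophil precursor and megakaryocyte markers given above, which were higher in the same libraries, and their part in the counts was not tested.

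**Figure D5:**
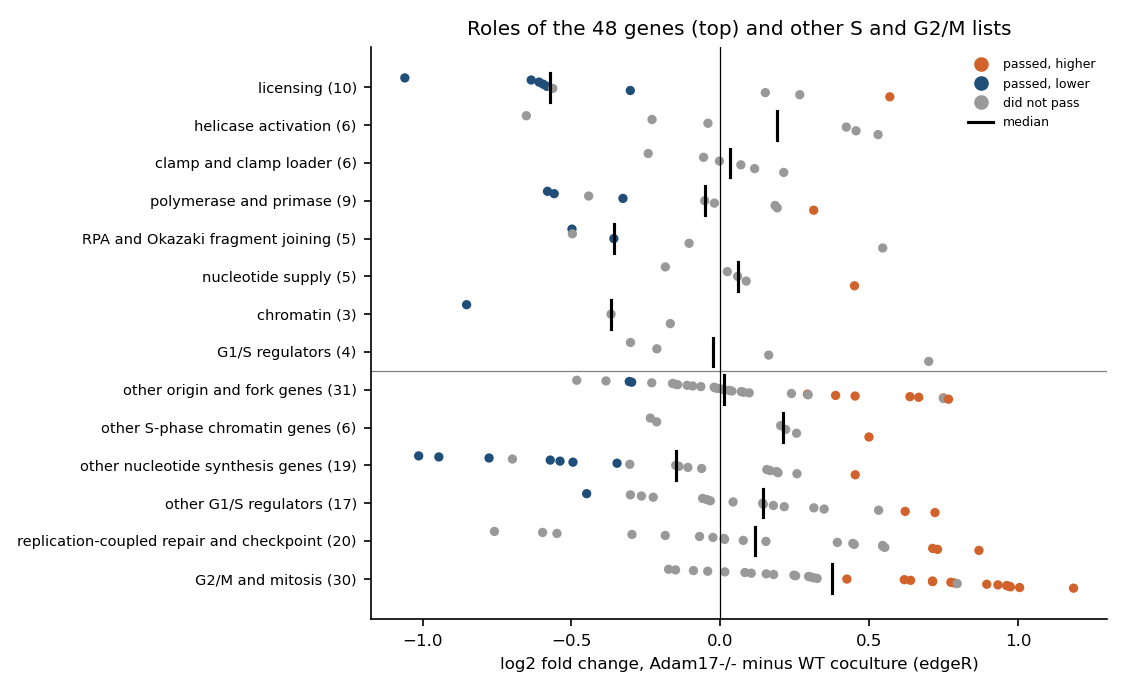
Log2 fold change (Adam17-/- minus WT coculture) of each gene in the 8 roles of the 48 replication genes, above the line, and in 6 other lists, below it, with the number of genes in parentheses. Orange and blue points passed as higher or lower, gray points did not, and black bars are medians. The licensing median lies at -0.57 and the G2/M median at 0.38.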

How the data were processed

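RNA was taken from BMDMs after coculture, and poly-A libraries were sequenced by BGI as paired ends; per the labels and methods, reads were mapped to GRCm38 (mm10) with HISAT and quantified with Bowtie2 and RSEM, whose versions are not given in the sources used here. The authors deposited, per RefSeq transcript, an expected count without normalization and an FPKM value that accounts for transcript length and library size. Transcripts under 0.01 FPKM are not listed and were taken as 0. Whether counting used strand is not given in the sources used here, so overlapping and antisense genes cannot be told apart. Between 12.2% and 12.9% of the gene sums of a library were not whole within 0.05, and counts shared with similar genes are uncertain there. Rows without a gene held 2 to 15 counts per library and were left out.

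For each gene the expected counts of its transcripts were added up and rounded. The 48 symbols were matched to gene identifiers, and samples were grouped by their labels, 2 WT and 3 Adam17-/- cocultures. The test was edgeR 4.0.16 in R 4.3.3 (TMM, filterByExpr, glmQLFit and glmQLFTest, no covariates) over 12576 genes, with Benjamini-Hochberg adjustment over all of them. SE is the log2 fold change divided by the square root of its F value. Library totals were 20788373 and 19204243 counts (WT) and 17421992, 14658694 and 18210258 counts (Adam17-/-), which put 3 counts at 0.157 to 0.197 CPM. On data simulated for this comparison with 12444 genes, 92 of 100 genes changed by 1 on the log2 scale were recovered and 48 of 100 changed by 0.5, with 15 unchanged genes called. Only these genes, drawn from those with a mean above 1 CPM, were changed, whereas 31.7% of all genes passed in the data. The recovered shares therefore need not hold for the data. Alternatives were DESeq2 1.42.0, other scalings, limma 3.58.1 on FPKM with pseudocounts of 0.1 and 1, other filters, a replicate block, leaving out each library, and a threshold of 0.01. Genes of other lists were named by a rule, up to 3 per direction by size of change. The 48 genes, roles, lists and rules were chosen with earlier results of these data known. Promoters are from RefSeq (GRCm38.p6) and exons from GENCODE M21 on GRCm38.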

Additional observations from a re-analysis of the deposited data

How the results depend on the processing

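Of 672 log2 fold changes of the 48 genes under 14 alternatives, 535 kept their direction and their side of the threshold, 70 lost and 25 gained a call, and 42, in 12 genes that had not passed, changed sign. The number of the 15 calls kept was 11 with DESeq2, 12 with upper quartile factors, 8 each with library sizes alone and the FPKM fits, 14 with no filter on low counts, 15 with at least 10 counts in every sample, 10 with the replicate block, 6 to 15 without single libraries, and 5 at an adjusted p of 0.01. Upper quartile factors gave 5 higher replication genes and turned the log2 fold changes of Gins4, Rfc1, Rfc5, Pola1 and Pola2 to 0.015, 0.0007, 0.054, 0.037 and 0.0044. Library sizes alone gave 6 higher and 5 lower replication genes (median 0.066), 5 lower genes in the 6 other lists, and 3019 higher and 1077 lower of all genes, and turned Gins4, Rfc1, Rfc5, Pola1, Pola2 and Rpa2 to 0.10, 0.088, 0.14, 0.12, 0.098 and 0.044. With limma on log2(FPKM + 0.1) there were 8 higher and 5 lower replication genes (median 0.071), 4 lower in the lists, and 2927 higher and 1016 lower of all genes, with Gins4, Rfc1, Rfc5, Pola1, Pola2 and Rpa2 at 0.11, 0.092, 0.14, 0.14, 0.11 and 0.050. With limma on log2(FPKM + 1) there were 8 and 5 (median 0.060), 4 lower in the lists, and 2867 higher and 1011 lower of all genes, with Gins4, Rfc1, Rfc5, Pola1, Pola2 and Rpa2 at 0.097, 0.085, 0.11, 0.081, 0.10 and 0.039. The filter of at least 10 counts in every sample turned Rfc5 to 0.011. No label ties same-numbered libraries to a mouse, batch or day, and their deviations from the group means correlated at -0.124 and -0.05. The replicate block gave 1 higher replication gene, 5 lower genes in the 6 lists, and 1216 higher and 1126 lower of all genes, and turned Pola1 to 0.049. At an adjusted p of 0.01 or less there were 1 higher and 4 lower replication genes, 9 higher G2/M genes, 16 higher and 5 lower in the 6 lists, and 815 higher and 1027 lower of all genes. Without single libraries, 1 to 4 replication genes were higher and 6 to 14 lower, 18 to 28 genes of the 6 lists were higher and 5 to 15 lower, 1089 to 2460 of all genes were higher and 926 to 2940 lower, and the median of the 48 genes was -0.19 to -0.042. The sign changed without some library, with ranges over the 5 fits, in Mcm10 (-0.50 to 0.11), Pola2 (-0.24 to 0.15), Rpa2 (-0.26 to 0.065), Chaf1b (-0.34 to 0.019), Gins4 (-0.15 to 0.069), Rfc1 (-0.14 to 0.026), Rfc3 (-0.085 to 0.23), Rfc5 (-0.16 to 0.16), Pola1 (-0.29 to 0.29), Tk1 (-0.13 to 0.27), Dut (-0.069 to 0.12) and Rfc4 (-0.052 to 0.38). The cause of these changes was not tested. Leaving out a library leaves 1 WT or 2 Adam17-/- cocultures, and a lone WT library is then assumed to vary like the others.

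The limits are the 2 WT libraries, the 1 knockout line, and the low counts of genes such as Cdc6 and Gins2, which widen their standard errors. Transcript shares are estimates.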
